A study of Mus musculus with 2 samples.

Results

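The AP-1 family genes Fos, Fosb, Fosl1, Fosl2, Jun, Junb, Jund and Atf3 were examined for accessible chromatin in mouse frontal cortex. They were chosen by gene symbol, as 8 of the 21938 protein-coding genes in the GENCODE M21 annotation of the mouse build mm10 (GRCm38). Each gene was given a window that ran from its gene body to 10 kb on each side. A peak or footprint belonged to the window when its midpoint lay inside, and a promoter peak was one whose midpoint lay at most 500 bp from one of the gene's own transcription start sites (TSS).

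AP-1 is a dimer of basic leucine zipper proteins. FOS proteins pair with JUN proteins, JUN proteins also pair with each other, and ATF3 is a related factor that pairs with JUN proteins among others. The dimers bind the sequence TGANTCA in promoters and enhancers. Several of the genes are immediate early genes, whose transcription in neurons rises within minutes of synaptic activity, through kinases that act on serum response factor, its ELK partners and CREB. Jund is the member known for steady expression, and Fosl1 and Atf3 are known for low expression in resting tissue.

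The study measured DNase I cutting, which is dense where DNA is free of nucleosomes. The tissue was frontal cortex of 14-day-old females of B6CASTF1/J, the hybrid of C57BL/6J and CAST/EiJ, and no treatment was labelled. The series held 1 group of 2 libraries, called replicates 1 and 2 in the labels, with separate biosamples but the same donor label. A mark of 3x in the labels is not explained, so pooling of animals is unknown and the spread between the libraries may be partly technical. Bulk tissue was used, so a site open in few cells and a site weakly open in many cells cannot be told apart. With 1 group no contrast could be tested, and the values below are descriptions with the mean ± SD of the 2 libraries.

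Peak strength was a signal normalized for read depth by the authors, on a scale that is not stated. Its values came in whole steps, within 0.05 of a step, and a step was 0.00670 in replicate 1 and 0.00858 in replicate 2. Replicate 1 had 93641 peaks and 234094 footprints, which are short stretches protected from cutting, and replicate 2 had 66196 and 154015. Promoter peaks of marker genes were compared with the labelled tissue, beside a share of 58.2% of all protein-coding genes with one in both libraries. Such peaks were present in both for 3 of 5 neuronal markers, near that share, and 1 of 3 astrocyte markers, and for 0 of 3 markers each of oligodendrocytes, microglia and endothelial cells. The neuronal markers Slc17a7 and Gad1 had one in replicate 1 alone.

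Both libraries had a promoter peak at all 8 AP-1 genes, as at 58.2% of protein-coding genes. In each library Jun, Jund, Junb and Fosb had the stronger promoters, with 4.19 to 8.84 in replicate 1 and 2.82 to 5.86 in replicate 2. Fos and Fosl2 followed, at 2.79 and 2.81 in replicate 1 and 2.53 and 1.91 in replicate 2. Atf3 and Fosl1 were weakest, at 1.46 and 1.13 in replicate 1 and 1.09 and 0.909 in replicate 2. At Junb, Jund, Jun, Fos and Fosl2 the accessible promoters carried many footprints, with 11 to 20 within 500 bp of an own TSS in each library. These counts cover all annotated starts of a gene, and the coding start of Fos alone had 7 in each library. Atf3 had peaks at an inner start and none at the 5′ end of its record. Fosb was the member whose strongest peak away from any start exceeded its promoter peak in both libraries.

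**Figure D1:**
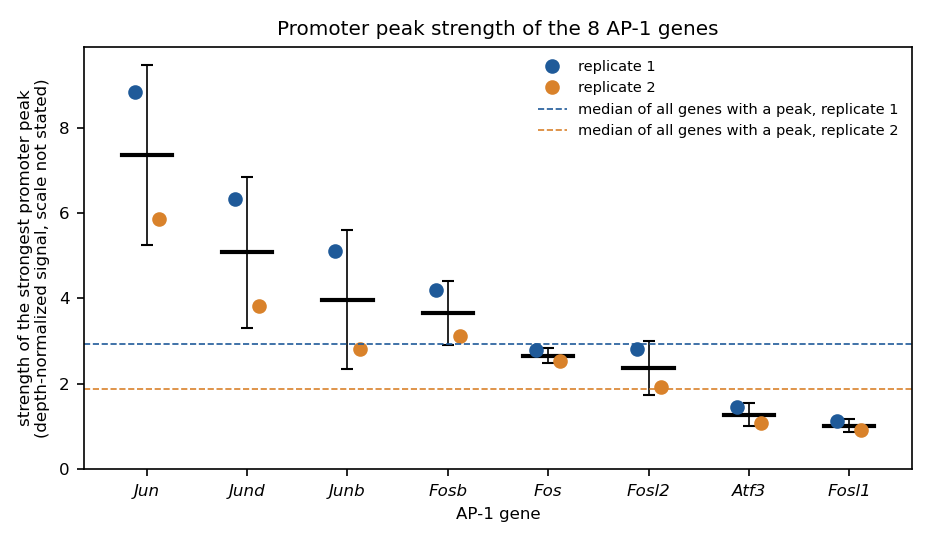
Strength of the strongest promoter peak (vertical axis, depth-normalized signal) for the 8 AP-1 genes. Points are the 2 libraries, horizontal bars the mean, error bars the SD, and dashed lines the medians of 2.94 in replicate 1 and 1.87 in replicate 2 over the 12771 genes with a promoter peak in both. Replicate 1 was higher for each gene. Atf3 and Fosl1 lay below the dashed line of each library, and Fos and Fosl2 below that of replicate 1 alone.

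Jun encodes the JUN protein, the founding partner of FOS. The gene lies at chromosome 4, 95049034 to 95052222, on the minus strand (ENSMUSG00000052684.4). Its promoter peak reached 8.84 in replicate 1 and 5.86 in replicate 2 (7.35 ± 2.11, SD, n = 2). That was the highest of the 8 in both libraries, at the 99.2nd and 99.4th percentile of protein-coding genes. Here and below, percentiles of promoter strength rank all 21938 genes, with those without a promoter peak at 0. If 1 step stands for 1 cut, the peak held 1320 and 683 cuts, with a counting error of 2.75% and 3.83%. All 1001 bases from 500 bp before to 500 bp after the start were in stretches that the authors list with a false discovery rate (FDR) below 0.05, in both libraries. The 199 bases before the start are shown because footprints cover 2 of their motif sites in both libraries, with the matches in capitals. In order these are an SP/KLF site on the opposite strand, a CCAAT box and a MEF2 site.
Jun promoter: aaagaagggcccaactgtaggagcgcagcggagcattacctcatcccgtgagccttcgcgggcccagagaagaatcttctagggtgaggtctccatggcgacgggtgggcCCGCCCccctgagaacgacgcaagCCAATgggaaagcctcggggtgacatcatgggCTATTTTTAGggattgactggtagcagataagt
The sequence is chr4:95052223-95052421, minus strand, read 5′ to 3′ along the gene. The MEF2 match CTATTTTTAG, centred at -29 bp, lay inside a footprint of 36 bp in replicate 1 and 26 bp in replicate 2. The SP/KLF match at -87 bp lay inside footprints of 34 and 38 bp. The CCAAT box at -63 bp met no footprint in either library. Matches to MEF2, the binding sequence of a factor family known for activity-dependent transcription in neurons, were present in the same window at 1.30% of protein-coding gene starts.

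Junb encodes JUNB, a JUN protein known as a weaker activator than JUN. The gene (chromosome 8, 84974484 to 84978718, minus strand, ENSMUSG00000052837.6) had peaks at 2 separate starts. The peak at the start of the coding transcript reached 4.43 in replicate 1 and 2.39 in replicate 2. A stronger peak, of 5.12 and 2.82 (3.97 ± 1.62, SD, n = 2), ended at the start of a noncoding processed transcript 2176 bp downstream. Both starts are shown, since they hold different motifs. The capitals mark a CCAAT box and a TATA box in the first, and an SP/KLF site on the opposite strand and a CArG box in the second. The CArG box, a run of A and T letters between CC and GG, is the binding sequence of serum response factor.
Junb promoter: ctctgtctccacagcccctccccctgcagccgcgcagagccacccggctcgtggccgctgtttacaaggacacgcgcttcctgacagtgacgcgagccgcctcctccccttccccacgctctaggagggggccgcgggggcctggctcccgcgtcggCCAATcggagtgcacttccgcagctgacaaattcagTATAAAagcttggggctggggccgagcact
Junb downstream peak: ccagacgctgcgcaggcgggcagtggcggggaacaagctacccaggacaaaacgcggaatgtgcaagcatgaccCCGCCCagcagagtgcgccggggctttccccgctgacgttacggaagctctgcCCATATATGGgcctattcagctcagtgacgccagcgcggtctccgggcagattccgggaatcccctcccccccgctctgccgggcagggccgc
The sequences are chr8:84978719-84978941 and chr8:84976541-84976760, both on the minus strand. At the coding start, the TATA box at -28 bp lay in a footprint of 35 bp in replicate 1, and a footprint of 7 bp covered part of it in replicate 2. At the downstream start, the CArG box CCATATATGG at -87 bp met a footprint of 19 bp in replicate 1 and 13 bp in replicate 2. The SP/KLF match of the downstream peak was also in a footprint in both libraries, of 18 and 24 bp. An ETS match, CCGGAAG, at 108 bp after the coding start touched a footprint in both libraries. It was the only ETS match within 500 bp of the starts searched for the 8 genes, which are the start with the strongest peak and the 5′ end of the record. At gene starts in general the ETS sequence was present at 19.2%.

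Jund encodes JUND, the JUN protein of resting cells. It lies at chromosome 8, 70698949 to 70700616, on the plus strand (ENSMUSG00000071076.6). The promoter peak reached 6.33 in replicate 1 and 3.83 in replicate 2 (5.08 ± 1.77, SD, n = 2), which was second of the 8 in each library and near the 94.5th and 94.6th percentile of protein-coding genes. A neighbouring promoter peak, centred at -468 and -458 bp, reached 3.76 and 2.53. The 250 bases before the start are shown because they hold the only full CRE, the CREB binding sequence TGACGTCA, found within 500 bp of the starts with the strongest peak of the 8 genes. The capitals mark, in order, the CRE, an EGR site, an SP/KLF site on the opposite strand, a CCAAT box, and 2 EGR sites that each run into an SP/KLF site.
Jund promoter: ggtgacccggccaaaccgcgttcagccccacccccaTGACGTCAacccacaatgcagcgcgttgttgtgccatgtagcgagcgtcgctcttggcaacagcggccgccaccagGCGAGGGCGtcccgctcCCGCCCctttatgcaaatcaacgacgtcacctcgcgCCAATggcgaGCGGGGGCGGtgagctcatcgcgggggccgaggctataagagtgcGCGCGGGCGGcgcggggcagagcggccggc
The sequence is chr8:70698699-70698948, plus strand. The CRE, centred at -211 bp, lay whole inside a footprint of 27 bp in replicate 1 and 19 bp in replicate 2. A full CRE was present at 3.32% of protein-coding gene starts. Of the 3 EGR matches, those at -71 and -26 bp touched a footprint in both libraries, and the one at -134 bp touched none in either. The RefSeq start of Jund lies at -1210 bp from the GENCODE start, and around it neither library had a peak or a base with an FDR below 0.05.

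Fos encodes FOS, the most used marker gene of recent neuronal activity. The gene spans chromosome 12, 85473890 to 85477273, on the plus strand (ENSMUSG00000021250.13). At the promoter the peak strength was 2.79 in replicate 1 and 2.53 in replicate 2 (2.66 ± 0.181, SD, n = 2). By ratio, at 1.10, it differed least between libraries of the 8 genes. The median ratio over genes with a promoter peak in both was 1.55, and Fos lay furthest from it of the 8. Its percentile among protein-coding genes was 69.4 in replicate 1 and 81.2 in replicate 2, the largest change of the 8. A second own peak, in an intron near the starts of 2 processed transcripts, had strengths of 1.61 and 1.37. The strongest peak of the Fos window in replicate 1 was intergenic. It was centred 12211 bp from the gene start with a strength of 4.16, and it overlapped a peak of replicate 2 centred at 12391 bp with a strength of 2.03, below the Fos promoter in that library. The promoter and this downstream peak are shown because both hold a CArG box. The promoter's capitals are the CArG box, an SP/KLF site on the opposite strand and the TATA box. Those of the downstream peak are a CArG box, an SP/KLF site, and an SP/KLF site that runs into an EGR site, the last 3 on the opposite strand.
Fos promoter: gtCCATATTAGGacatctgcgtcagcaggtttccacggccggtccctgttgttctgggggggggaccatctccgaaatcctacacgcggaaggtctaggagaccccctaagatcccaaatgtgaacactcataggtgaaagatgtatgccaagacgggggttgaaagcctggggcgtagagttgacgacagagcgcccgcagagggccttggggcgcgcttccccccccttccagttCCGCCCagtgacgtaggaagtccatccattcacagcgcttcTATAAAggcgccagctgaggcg
Fos downstream peak: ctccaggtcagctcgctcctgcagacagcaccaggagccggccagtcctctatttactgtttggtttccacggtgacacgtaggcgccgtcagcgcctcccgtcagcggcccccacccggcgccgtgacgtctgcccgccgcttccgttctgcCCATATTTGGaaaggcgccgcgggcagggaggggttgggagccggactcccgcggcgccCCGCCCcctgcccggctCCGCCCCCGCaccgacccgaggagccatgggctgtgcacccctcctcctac
The sequences are chr12:85473579-85473878 and chr12:85485961-85486240, both on the plus strand. The Fos TATA box at -31 bp lay whole inside a footprint in both libraries, of 33 bp in replicate 1 and 32 bp in replicate 2. The promoter's CArG box, CCATATTAGG at -305 bp, is the serum response element through which serum response factor is known to act on Fos. It met no footprint in either library, although all 10 of its bases were in stretches with an FDR below 0.05 in both, and it lay inside the promoter peak of replicate 2 alone. The downstream CArG box, CCATATTTGG, was covered by a footprint of 36 bp in replicate 1 and touched by 2 footprints of 11 bp in replicate 2. The downstream EGR match lay within footprints of 45 and 41 bp. Among peaks away from any TSS, 0.837% held a CArG box in replicate 1 and 0.833% in replicate 2, and 1.05% and 1.03% held an EGR match. The peak of replicate 2 lay further downstream, so its own bases held the EGR match and not the CArG box.

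**Figure D2:**
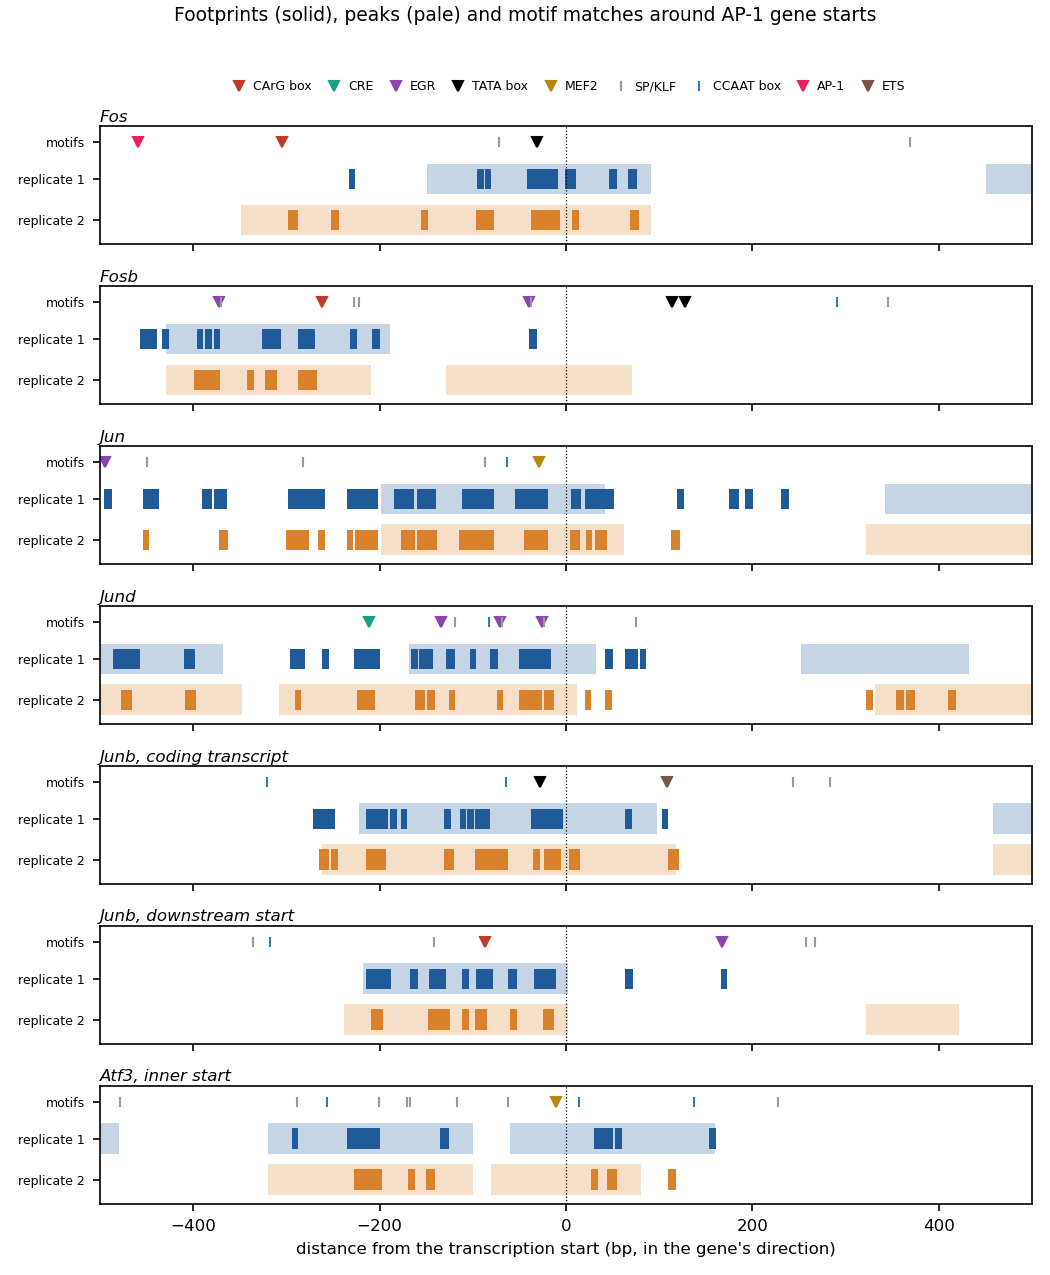
Positions around 7 starts of the 6 AP-1 genes with printed sequences (horizontal axis, bp from the start in the gene's direction). Solid bars are footprints and pale bars peaks of each library, and the marks above are motif matches. Footprints of both libraries lie under the TATA box of Fos, the MEF2 site of Jun and the CRE of Jund, and none lie under the CArG boxes of Fos and Fosb.

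Fosb encodes FOSB and its shortened form ΔFOSB, which is known to build up with repeated stimulation. Its record covers chromosome 7, 19302696 to 19310051, on the minus strand (ENSMUSG00000003545.3). Its promoter peak reached 4.19 in replicate 1 and 3.12 in replicate 2 (3.65 ± 0.752, SD, n = 2), at the 82.3rd and 89.2nd percentile. The peak was centred before the start, at -310 and -320 bp. Replicate 2 alone had a second promoter peak over the start itself, of strength 1.36. The 240 bases of the replicate 1 peak are shown because they hold a CArG box with no footprint on it. The capitals mark an EGR site that runs into an SP/KLF site, the CArG box, and a pair of overlapping SP/KLF sites.
Fosb promoter peak: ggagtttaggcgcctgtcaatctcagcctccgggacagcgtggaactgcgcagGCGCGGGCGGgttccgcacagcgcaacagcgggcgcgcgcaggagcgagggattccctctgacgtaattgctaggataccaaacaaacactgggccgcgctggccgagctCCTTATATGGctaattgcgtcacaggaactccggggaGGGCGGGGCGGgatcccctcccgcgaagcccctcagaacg
The sequence is chr7:19310241-19310480, minus strand. The CArG box CCTTATATGG, centred at -262 bp, met no footprint in either library, and all 10 of its bases were in stretches with an FDR below 0.05. The nearest shared footprint, centred at -280 bp in replicate 1 and -278 bp in replicate 2, was 19 and 20 bp wide. The EGR match at -372 bp touched footprints in both libraries.

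Fosb had a peak away from any TSS that was stronger than its promoter peak in both libraries, as did 16.4% of the genes with a promoter peak in both. That peak lay 14050 bp downstream of the Fosb start, in the 3′ UTR of the neighbouring gene Rtn2, which encodes a reticulon of the endoplasmic reticulum. Its strength was 4.87 in replicate 1 and 4.59 in replicate 2. It held 2 footprints in each library, and 0 matches to the 9 motifs searched. A further Fosb peak, in a noncoding exon of the gene, was 5.26 in replicate 1, above the promoter, and 2.79 in replicate 2, below it. No peak away from any TSS exceeded the promoter in both libraries at the other 7 genes.

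Fosl2 encodes FRA2, a FOS-related protein that lacks the activating end of FOS. It lies at chromosome 5, 32135801 to 32157842, on the plus strand (ENSMUSG00000029135.10). Its strongest promoter peak was 2.81 in replicate 1 and 1.91 in replicate 2 (2.36 ± 0.632, SD, n = 2), at the 69.6th and 71.5th percentile. The RefSeq start of Fosl2 lies 671 bp downstream of the GENCODE start, and the strongest peak within 500 bp of it was 1.22 and 0.635. Like Jun, it had all 1001 bases around its 5′ end in stretches with an FDR below 0.05 in both libraries, with 13 footprints in each. An inner start at 10720 bp had no peak, no footprint and no such base. Its AP-1 match TGACTCA, centred 56 bp after the start, met no footprint.

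Fosl1 encodes FRA1, a FOS-related protein known from growing and injured cells. It lies at chromosome 19, 5447547 to 5455946, on the plus strand (ENSMUSG00000024912.6). Its promoter peak was the weakest of the 8 in both libraries, at 1.13 in replicate 1 and 0.909 in replicate 2 (1.02 ± 0.153, SD, n = 2). These were the 50.1st and 52.8th percentile of all protein-coding genes, and below the medians of 2.94 and 1.87 over genes with a promoter peak in both. The peak was absent from the shorter of the authors' 2 peak lists in both libraries. If 1 step is 1 cut, it held 168 and 106 cuts, with counting errors of 7.72% and 9.71%. Stretches with an FDR below 0.05 covered 403 and 313 of the 1001 bases around the 5′ end. The stronger peaks of the Fosl1 window belonged to neighbours. The start of Ccdc85b, which encodes a coiled-coil protein, had a peak of 5.24 and 3.17. The start of Fibp, which encodes a binding protein of acidic fibroblast growth factor, had one of 2.69 and 2.27.

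Atf3 encodes a stress-induced factor of the ATF family. The record spans chromosome 1, 191170296 to 191218039, on the minus strand (ENSMUSG00000026628.13). Around the 5′ end of the record, neither library had a peak, a footprint or a base with an FDR below 0.05. The promoter peaks lay at a protein-coding start 34699 bp further in, close to the RefSeq start. Their strongest was 1.46 in replicate 1 and 1.09 in replicate 2 (1.27 ± 0.262, SD, n = 2), at the 54.6th and 56.3rd percentile. Within 500 bp of that start 792 bases in replicate 1 and 582 in replicate 2 had an FDR below 0.05. The 300 bases before the inner start are shown as the Atf3 promoter that had peaks. The capitals mark 6 SP/KLF matches on either strand, of which 2 overlap, a CCAAT box on the opposite strand and a MEF2 site at the end.
Atf3 inner promoter: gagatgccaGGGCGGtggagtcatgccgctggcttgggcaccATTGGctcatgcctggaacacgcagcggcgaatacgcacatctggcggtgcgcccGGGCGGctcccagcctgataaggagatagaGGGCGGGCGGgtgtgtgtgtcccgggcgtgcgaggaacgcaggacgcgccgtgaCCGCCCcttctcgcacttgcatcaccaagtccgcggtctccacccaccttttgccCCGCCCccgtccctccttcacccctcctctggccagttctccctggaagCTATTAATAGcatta
The sequence is chr1:191183341-191183640, minus strand. An SP/KLF match touched the widest shared footprint at this start, of 36 bp in replicate 1 and 30 bp in replicate 2. The MEF2 match CTATTAATAG at -11 bp met no footprint, unlike that of Jun. Outside the gene, the start of the long noncoding RNA D730003I15Rik, at -6392 bp in replicate 1, had a peak of 3.64 and 1.72, above any Atf3 promoter peak in the same library.

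The 8 printed sequences were read from the RefSeq assembly GRCm38.p6, which is the C57BL/6J genome, so the CAST/EiJ alleles are not shown. Motifs were searched as letter patterns on both strands, 500 bp on each side of the start with the strongest peak. That start was the downstream one of Junb and the inner one of Atf3. The MEF2 pattern was a run of A and T letters between CTA and TAG. A site was counted as in a footprint when the 2 shared at least 1 base. Of 3 AP-1 matches, TGANTCA, at Fos, Fosl1 and Fosl2, 0 met a footprint in either library, and 18.9% of protein-coding gene starts held such a match. The Fos match had 0 bases in stretches with an FDR below 0.05 and lay outside peaks in both libraries, and the Fosl1 match did so in replicate 2. The Fosl2 match had all 7 bases in such stretches in both libraries. EGR matches, GCGNGGGCG, were present at Fosb, Jun, Junb and Jund, against 15.3% of gene starts. Of their 7 sites, 6 met a footprint in replicate 1 and 3 in replicate 2, and 3 in both. CArG boxes were present at 3 of 8 genes, against 4.31% of gene starts, and that of Junb alone met footprints in both libraries. SP/KLF matches, GGGCGG, which can overlap EGR matches, were present at all 8 genes and at 60.4% of gene starts. Of their 31 sites, 13 met a footprint in replicate 1, 11 in replicate 2 and 8 in both. CCAAT was present at 6 of the 8 genes and 70.7% of gene starts, and TATAAA at 3 and 32.3%. The gene starts of the background were the 5′ ends of the records of all 21938 genes, with or without a promoter peak. The member starts all had a peak, so these shares are not those of accessible starts alone.

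Away from starts, the AP-1 windows together held 32 peaks in replicate 1 and 26 in replicate 2. Listed peaks of 1 library can overlap, as did those of Junb centred at -7333 and -7563 bp in replicate 2. A peak count can therefore hold 1 site more than once. The median per gene was 4.5 and 2.5, beside 2 and 1 over the 12771 genes with promoter peaks in both. Junb had 6, as did Fosb, in replicate 1, and 9, the most, in replicate 2. Its strongest were intergenic, upstream of the coding start, at -7293 bp in replicate 1 with a strength of 3.79 (2.11 in replicate 2) and at -1253 bp with 2.63 (2.15). Jund had 1 and 2, the stronger just after its end at 1772 bp in replicate 1 with 2.69 (1.52). Fosl1 had 1 in replicate 1 and 0 in replicate 2. Strengths away from starts had a median of 1.08 and 0.871, below the own promoter peaks, at 2.62 and 1.85. Peaks at starts of other genes numbered 12 and 17. Besides those of Ccdc85b, Fibp and D730003I15Rik, the strongest per window lay at Junos (3.92 and 3.57), Rnaseh2a (3.88 and 2.20), Gm11175 (2.32 and 1.00), Gm26802 (2.06 and 1.50) and Gm10463 (0.723 and 0.600). Junos is an antisense RNA that starts near the Jun promoter, and Rnaseh2a encodes a subunit of ribonuclease H2. DNase data carry no strand, so the share of each partner in such a peak cannot be told apart.

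**Figure D3:**
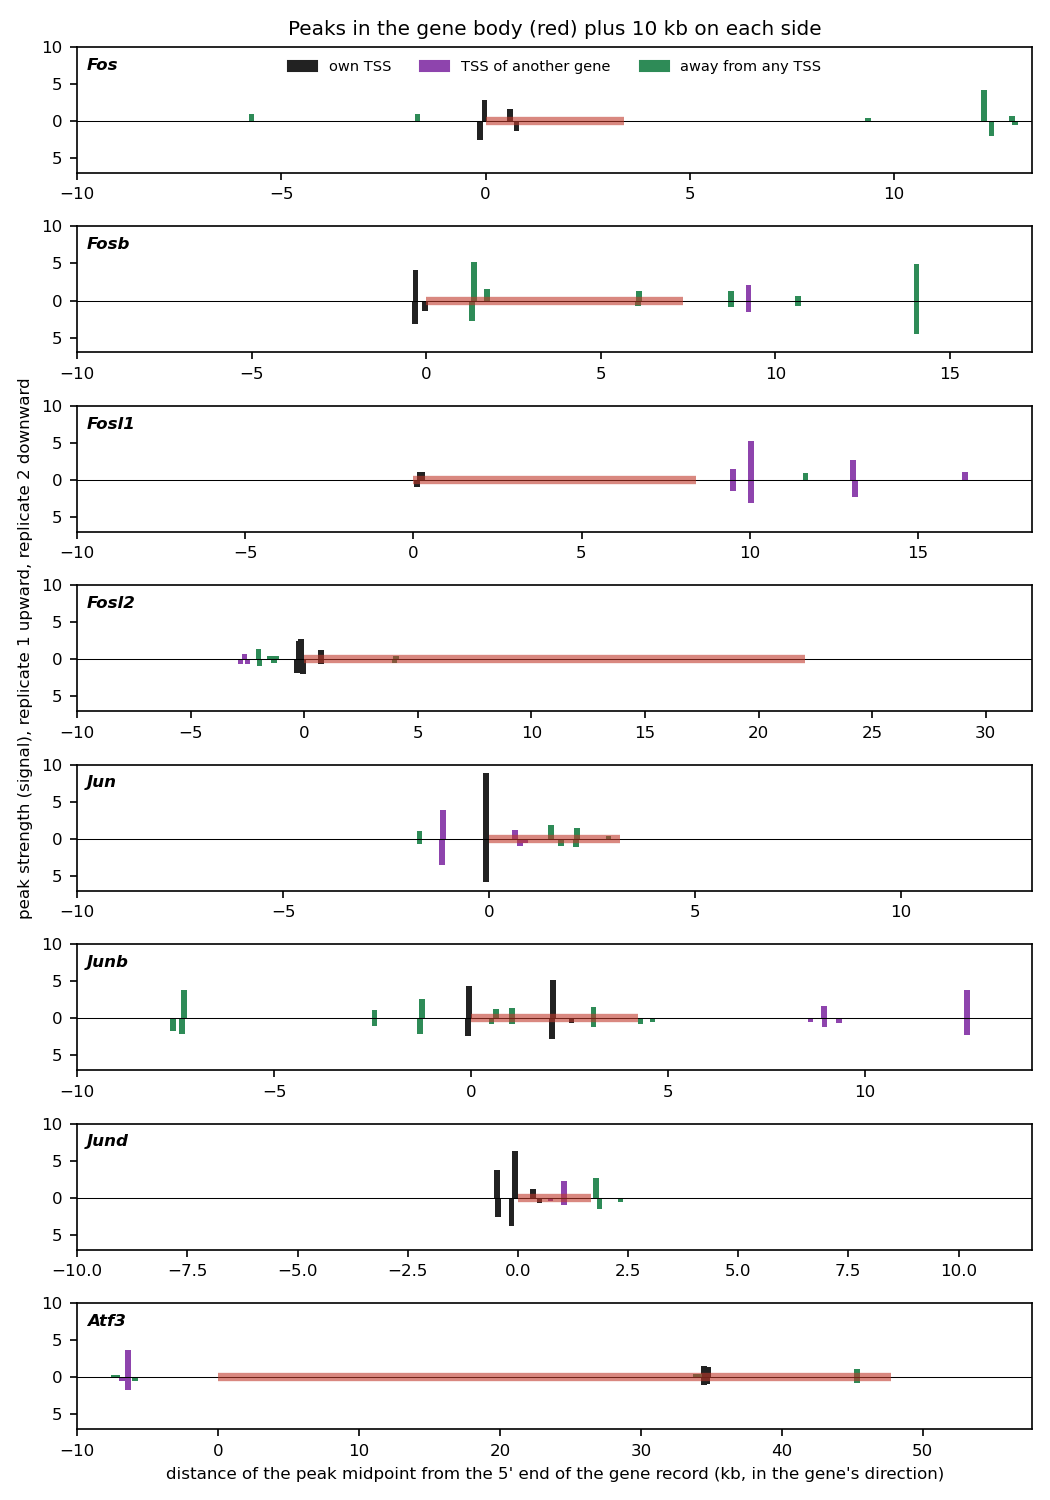
Peaks in the window of each AP-1 gene (horizontal axis, kb from the 5′ end of the record in the gene's direction; vertical axis, strength, with replicate 1 upward and replicate 2 downward). Colours separate own starts, starts of other genes and sites away from any start. The strongest bars away from starts are at Fosb, at 14050 bp, and in replicate 1 also inside Fosb and downstream of Fos.

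Footprints in the 8 windows numbered 245 in replicate 1 and 191 in replicate 2. A footprint within 500 bp of an own start was present in both libraries for all 8 genes, beside 56.7% of protein-coding genes. At own starts the median per gene was 13 and 12, beside 7 and 6 over those 12771 genes. Junb had the most in its window, with 63 and 47, at the 99.3rd and 99.7th percentile of protein-coding genes. Of those, 20 and 15 lay at its own starts, with 11 and 9 at the coding start and 9 and 6 at the downstream one. Jun had 16 and 14 at its start, Jund 15 and 16, Fosl2 15 and 13, and Fos 11 and 11. Of the Fos footprints, 7 and 7 lay at its coding start. Fosb had 10 in replicate 1 and 4 in replicate 2, Fosl1 had 5 and 2, and Atf3 had 6 and 6. The median width was 10 bp in each library.

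**Figure D4:**
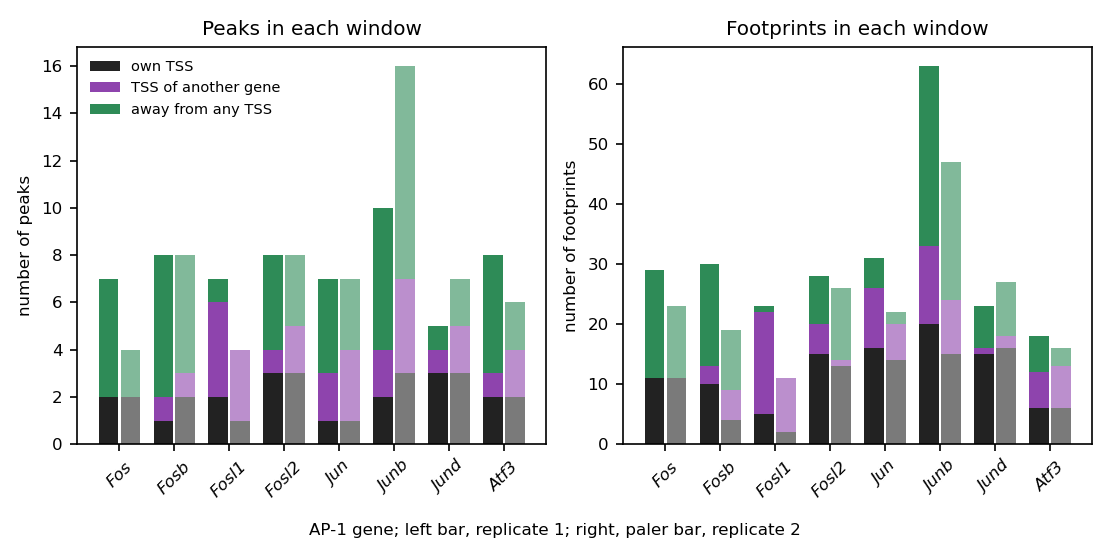
Numbers of peaks (left) and footprints (right) in the window of each AP-1 gene, as bars that start at 0, stacked by own starts, starts of other genes and sites away from starts, with replicate 2 as the paler bar. Junb has the tallest bars in both panels, with 10 and 16 peaks and 63 and 47 footprints.

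The libraries were set beside each other over the same genes. Replicate 1 exceeded replicate 2 at all 8 promoters, by ratios from 1.10 at Fos to 1.81 at Junb. The median ratio was 1.40 (log2 0.49), beside 1.55 (log2 0.63) over the 12771 genes, of which the middle 90% (5th to 95th percentile) spanned 1.01 to 2.15. Fos and Junb lay inside that span. The order of the 8 genes was the same in both libraries except that Junb and Fosb, and Fosl2 and Fos, changed places. Within each library Jun lay above Jund, Jund above Junb and Fosb, and Atf3 above Fosl1. Over the pair of libraries, the ranges of Jun and Jund, Jund and Junb, Jund and Fosb, and Junb and Fosb overlapped. So did those of Fos and Fosl2, and of Atf3 and Fosl1. Each range holds the difference between the libraries, so an overlap does not set aside an order that both libraries shared. The ranges of Fosb and Fos, and of Fosl2 and Atf3, did not overlap.

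Each library had 60 peaks in the 8 windows, although replicate 1 had 1.41 times as many peaks in all. In replicate 1, 48 of the 60 (80%) shared bases with a replicate 2 peak, beside 59.1% of all its peaks. In replicate 2 it was 50 of 60 (83.3%), beside 84.4%. The AP-1 peaks had a median strength of 1.39, at the 78.0th percentile of all peaks in replicate 1, and 1.01, at the 66.6th percentile in replicate 2. The AP-1 shares thus lay above the share of all peaks in replicate 1 alone. In the strength decile of all peaks that held the AP-1 median, 90.5% and 96.0% overlapped the other library, above the AP-1 shares. That decile is not matched to the AP-1 peaks, whose strengths ran from 0.295 to 8.84 in replicate 1 and 0.455 to 5.86 in replicate 2. Whether AP-1 peaks were shared less often than peaks of like strength was therefore not tested. The unshared AP-1 peaks were weak, with medians of 0.486 and 0.566, beside 1.60 and 1.20 for shared ones. Footprints overlapped for 128 of 245 in replicate 1 (52.2%), beside 37.4% of all, and for 131 of 191 in replicate 2 (68.6%), beside 58.2%. They were not set beside footprints in peaks of like strength, so whether the higher shares go with peak strength was not tested.

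Of the related factors, 9 of 11 partner and related leucine zipper genes carried promoter peaks in both libraries, and the median strength over the list, with genes without a peak at 0, was 2.65 in replicate 1 and 1.74 in replicate 2. The strongest were Atf7 (7.51 in replicate 1 and 4.20 in replicate 2) and Atf2 (7.27 and 3.82), which encode CRE-binding partners of JUN. Batf and Batf3, known from lymphoid and myeloid cells, had none in either library. Of the kinases and factors that act on AP-1 genes, 10 of 11 had one in both, with list medians of 2.85 and 1.80. Elk3, an ELK factor, had a promoter peak in replicate 1 alone, at 0.542. The strongest was Map2k7, which encodes a kinase of the JUN kinases, at 9.76 and 5.02. Srf, which encodes serum response factor, stood at 5.65 and 2.70, and the JUN kinase gene Mapk9 at 5.87 and 3.94. Over all protein-coding genes the share with promoter peaks in both was 58.2%.

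The genes of most similar pattern were found by 6 rank percentiles, for promoter strength, peaks away from starts and footprints in each of the 2 libraries. The closest match was Hspa8 for Jun, at a distance of 1.72 percentile points, with promoter strengths of 10.1 and 4.73. Junb was closest to Smarca2 (3.36 points), Fos to Baz2a (4.19), Atf3 to Plxdc2 (4.63) and Fosb to Grk5 (5.02). Jund was closest to Txndc11 (5.23), Fosl2 to Ankrd17 (5.24) and Fosl1 to Zfp358, with the largest distance of the 8, at 8.15 points.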

How the data were processed

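DNase-seq was measured in frontal cortex, in 1 group of 2 libraries. Per the deposited notes, each library's calls came from its own mm10 alignments, with no pooling. The aligner, caller and thresholds were not given in the sources used here. Peak strength is a signal that the authors normalized for read depth. The deposited FDR values are on a p-value scale, and every listed stretch is below 0.05, so positions alone were used. The footprint files hold a constant in a score column, so the authors' positions alone were used. The longer of the 2 deposited peak lists was the main one. Total depth is unknown, which limits precision to the step size, and counting errors cover cuts alone.

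Features were assigned by midpoint to GENCODE M21 genes, and a shared peak had at least 1 bp in common with one of the other library. The members, the pathway, marker and motif lists and the alternatives were chosen with earlier results of these data known. Named were all 8 members, the neighbour with the strongest start peak per window, and the nearest gene by 6 rank percentiles. Of the pathway lists, the strongest gene and those without a promoter peak in both libraries were named. Fibp, Rtn2, Atf2, Srf and Mapk9 were named outside these rules, after their values were seen, as were the markers Slc17a7 and Gad1. In the RefSeq promoter table, 7 of 8 members matched, and Fosl1 did not. Tools were Python 3.11.15, numpy 2.4.6, pandas 2.3.3, pysam 0.24.0, matplotlib 3.10.9 and, for checks, bedtools 2.31.1. On simulated data, overlap calls equalled bedtools for 3000 of 3000 intervals. Gene values equalled a separate direct calculation for 200 of 200 genes. Of all peaks and footprints, 0 reached past a chromosome end.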

Additional observations from a re-analysis of the deposited data

How the results depend on the processing

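Of 38 alternative values, 29 stayed within a set limit and 9 moved. For counts the limit was 1.5 times the main count, and for the median strength it was the SD of the libraries, 0.580. For the median log2 ratio it was 0.102, a counting error that takes 1 step as 1 cut. For the share of overlapping peaks it was 7.29 percentage points, from a 95% interval that takes peaks as independent. The last 2 limits are not spreads between the libraries. The number of AP-1 genes with a promoter peak in both libraries was 8 with equal numbers of strongest peaks. It was also 8 in each library alone and with 1000 bp windows, which had to follow from the main count. It was 7 with the shorter peak list (without Fosl1), with 250 bp windows (without Fosb) and at the 5′ end alone (without Atf3). Peaks away from starts, 29.0 as the mean of both libraries, came to 11.0 in the gene body alone, 62.0 with 50 kb on each side and 18.5 when over 1000 bp from any start. Footprints, 218 as the mean, came to 60.0 in the gene body alone, 431 with 50 kb and 114.5 when at least 10 bp long. The median promoter strength, 3.09, became 4.94 when promoter peaks were summed, with overlapping peaks of a library each counted. The share of peaks overlapping the other library, 81.7%, became 61.7% with 50% reciprocal overlap and 92.2% in the shorter list. These follow from the alternatives' own construction, except for the shorter list, where the cause was not tested. Each library alone gave a median strength of 2.68 to 3.50, 26 to 32 peaks away from starts and 191 to 245 footprints. For the median strength, a single library lies within the SD of the pair by construction. Such fixed outcomes are counted among the 29 and are no check. No paired analysis was possible because the study has 1 group. If 1 step is 1 cut, counting error was largest at the weak promoters of Fosl1 (9.71%) and Atf3 (8.87%) in replicate 2.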
